A study of Homo sapiens with 40 samples.

Results

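The SLC25 genes encode the mitochondrial carriers, the largest family of solute carriers in human cells. Members were taken as every protein-coding gene whose symbol is SLC25A followed by a number, which gave 48 genes of the 19550 protein-coding genes listed in the count tables. The family was chosen by a measured value, since it was picked because SLC25A1 was nearly absent in NEB cells, so the SLC25A1 values below are a description and support nothing. The other members were not selected on their values.

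The cells were T47D, a human luminal breast cancer cell line, at passage 10, with no treatment named in the labels. They were sorted singly by FACS for the surface proteins EpCAM and integrin α6. Full-length cDNA was prepared with Genome & Transcriptome sequencing (G&T, a non-commercial protocol, 13 cells), the SMART-seq HT kit (Takara, 13 cells) or the NEBNext Single Cell/Low Input kit (NEB, 14 cells), and 11 cells of each protocol passed the quality thresholds. Each protocol was sequenced in 1 run, and the number of cultures and plates is not stated in the sources used here. A protocol thus cannot be told apart from its run and stands as 1 sample without a replicate. No p-value can therefore be given, and the range over cells describes the cells of 1 run.

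Most mitochondrial carriers lie in the inner membrane, where each moves a particular set of metabolites, nucleotides, cofactors or ions between the cytosol and the matrix, usually in exchange for another. They share a fold made of repeats with paired membrane helices, are made in the cytosol and are inserted by the TIM22 machinery. In proliferating breast cancer cells the family is known for supplying ADP and phosphate to ATP synthase and for exporting citrate, from which the cytosol makes fatty acids and sterols.

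The kept cells held 658154 to 1166633 reads on genes in G&T, 818512 to 1287911 in Takara and 624772 to 963816 in NEB. On average 11348 genes had reads in a G&T cell, 11178 in a Takara cell and 5277 in an NEB cell. As a check of the label, 8 of 8 luminal epithelial genes had reads in each protocol. Their summed pooled level was 9317 CPM in G&T, 17091 CPM in Takara and 2893 CPM in NEB. KRT8 was at 4237, 5234 and 84.8 CPM. At least 2-fold lower in NEB were 3 of the 8 genes against G&T and 4 against Takara, and 1 and 2 were higher. Of all protein-coding genes with at least 5 CPM in 1 of the 2 protocols, 42.7% and 42.9% were lower. The shares that were higher were 20.8% and 23.5%. Of 10 immune, endothelial and stromal genes, 6, 2 and 3 had reads in G&T, Takara and NEB. The summed level of these 10 genes reached at most 44.6, 53.7 and 128 CPM in a cell of each protocol. COL1A1 had reads in 11 G&T, 10 Takara and 9 NEB cells, and VIM reached 126 CPM in NEB cell A1. CD3E, LYZ and CDH5 had no read in any kept cell. CPM are counts per 1000000 reads on genes.

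The coding sequences of the ADP/ATP carriers show how alike family members can be, and are printed because the protocols differed in which of these genes they counted. Each stretch holds the first 150 coding bases of the second coding exon in the GRCh38 reference. SLC25A5 (chrX:119469661-119469810, plus strand) is in lower case, and capitals in SLC25A6 (chrX:1389578-1389727, minus strand) and SLC25A4 (chr4:185144764-185144913, plus strand) mark bases that differ from SLC25A5.
SLC25A5: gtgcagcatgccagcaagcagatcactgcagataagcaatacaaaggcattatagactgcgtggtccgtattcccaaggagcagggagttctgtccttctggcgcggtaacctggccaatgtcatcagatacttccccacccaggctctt
SLC25A6: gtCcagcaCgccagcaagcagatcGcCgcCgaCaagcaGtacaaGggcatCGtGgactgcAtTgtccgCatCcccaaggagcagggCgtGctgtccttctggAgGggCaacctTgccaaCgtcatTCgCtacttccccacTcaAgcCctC
SLC25A4: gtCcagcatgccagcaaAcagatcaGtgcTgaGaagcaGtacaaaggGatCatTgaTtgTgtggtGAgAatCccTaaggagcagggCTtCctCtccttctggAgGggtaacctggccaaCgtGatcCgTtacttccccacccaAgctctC

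SLC25A6 differed from SLC25A5 at 29 of the 150 bases, and at 20 of them it had G or C where SLC25A5 had A or T, against 7 in the opposite direction. SLC25A4 differed at 28 bases, with 9 towards G or C and 8 away from it. The GC content was 52.7% in this stretch of SLC25A5, 53.3% in SLC25A4 and 61.3% in SLC25A6. Over the whole coding sequence, which is 894 bases long in each of the 3 genes, it was 52.5%, 55.1% and 62.9%.

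Carriers were detected less widely in NEB than in the other protocols. Of the 48 members, 43 had at least 1 read in some kept G&T cell, 41 in some Takara cell and 31 in some NEB cell. That was 89.6%, 85.4% and 64.6% of the family, where 71.7%, 65.3% and 49.5% of all protein-coding genes had reads. Detection in any kept cell was lowest in NEB on both scales.

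A single G&T cell had reads on 33.0 ± 4.27 members (SD over 11 cells, lowest 26, median 34, highest 41). A Takara cell had reads on 36.3 ± 1.56 members (34, 36 and 39), and an NEB cell on 10.5 ± 2.16 (8, 10 and 15). The NEB range lay below both others without overlap, and the G&T and Takara ranges overlapped. When every cell was thinned to the 624772 reads on genes of the smallest kept cell, the expected means were 32.4, 35.3 and 10.4. As a share of the family, an NEB cell detected 21.8% of the members against 23.9% of all protein-coding genes, whereas the shares were 68.8% and 48.9% in G&T and 75.6% and 49.8% in Takara.

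Within G&T, the cells with more genes had more members, with Spearman's rho 0.924 over 11 cells that share 1 run and differ in depth. The G&T cell with the most members, B1, had reads on 41 members and 12166 genes, and the cell with the fewest, H1, had 26 members and 9541 genes. The same rho was 0.385 in Takara and 0.436 in NEB.

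**Figure D1:**
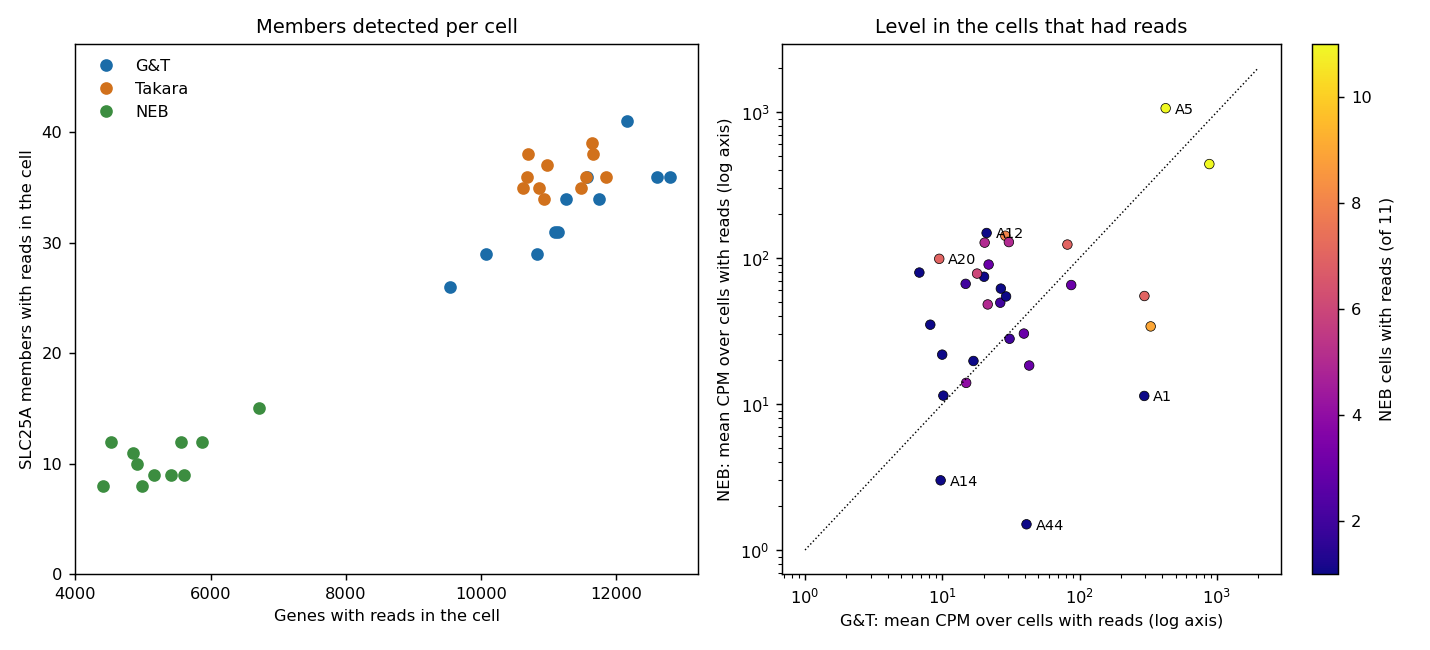
Left, members with reads (of 48) against all genes with reads in each kept cell, with 11 cells a protocol, where the NEB cells lie at 8 to 15 members and the others at 26 to 41. Right, for the 31 members with NEB reads, the mean CPM over the NEB cells that had reads against the same mean in G&T, both on log axes, coloured by the number of NEB cells with reads, with the dotted line at equality. Of the 31 points 20 lie above it, beside 66.1% of all protein-coding genes with reads in both protocols, which are not plotted.

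SLC25A3 and SLC25A5 were the only members with reads in every kept cell of all 3 protocols. In every kept cell, reads were found on 15 members in G&T, on 24 in Takara and on 2 in NEB, beside 27.5%, 32.6% and 6.78% of all protein-coding genes. Of the 12 members with reads in all 22 kept G&T and Takara cells, SLC25A6 had reads in 9 NEB cells, SLC25A36 and SLC25A39 in 7, SLC25A37 in 6, SLC25A32 in 5, SLC25A4, SLC25A11 and SLC25A13 in 3, and SLC25A1 and SLC25A38 in 1. Those 2 of 12 members stood beside 13% of the 4737 protein-coding genes seen in all those cells, and nothing is read from this count because SLC25A1 chose the family.

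There were 4 members without a read in any kept cell: SLC25A31, an ADP/ATP carrier of testis, SLC25A2, an ornithine carrier, SLC25A47, a liver carrier, and SLC25A52, a close relative of the NAD+ carrier SLC25A51. A count of 0 allows up to 3 reads, or 0.316 CPM pooled over the G&T cells, 0.256 CPM in Takara and 0.376 CPM in NEB. Another 9 members had reads in G&T and Takara and none in NEB, namely SLC25A10, SLC25A21, SLC25A22, SLC25A25, SLC25A29, SLC25A35, SLC25A42, SLC25A51 and SLC25A53. SLC25A27, SLC25A34 and SLC25A48 had reads in G&T alone, and SLC25A41 in Takara alone, with 37, 14, 1 and 5 reads in that order. Intervals and limits cover counting error only, because the reads carry no molecular identifiers.

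**Figure D2:**
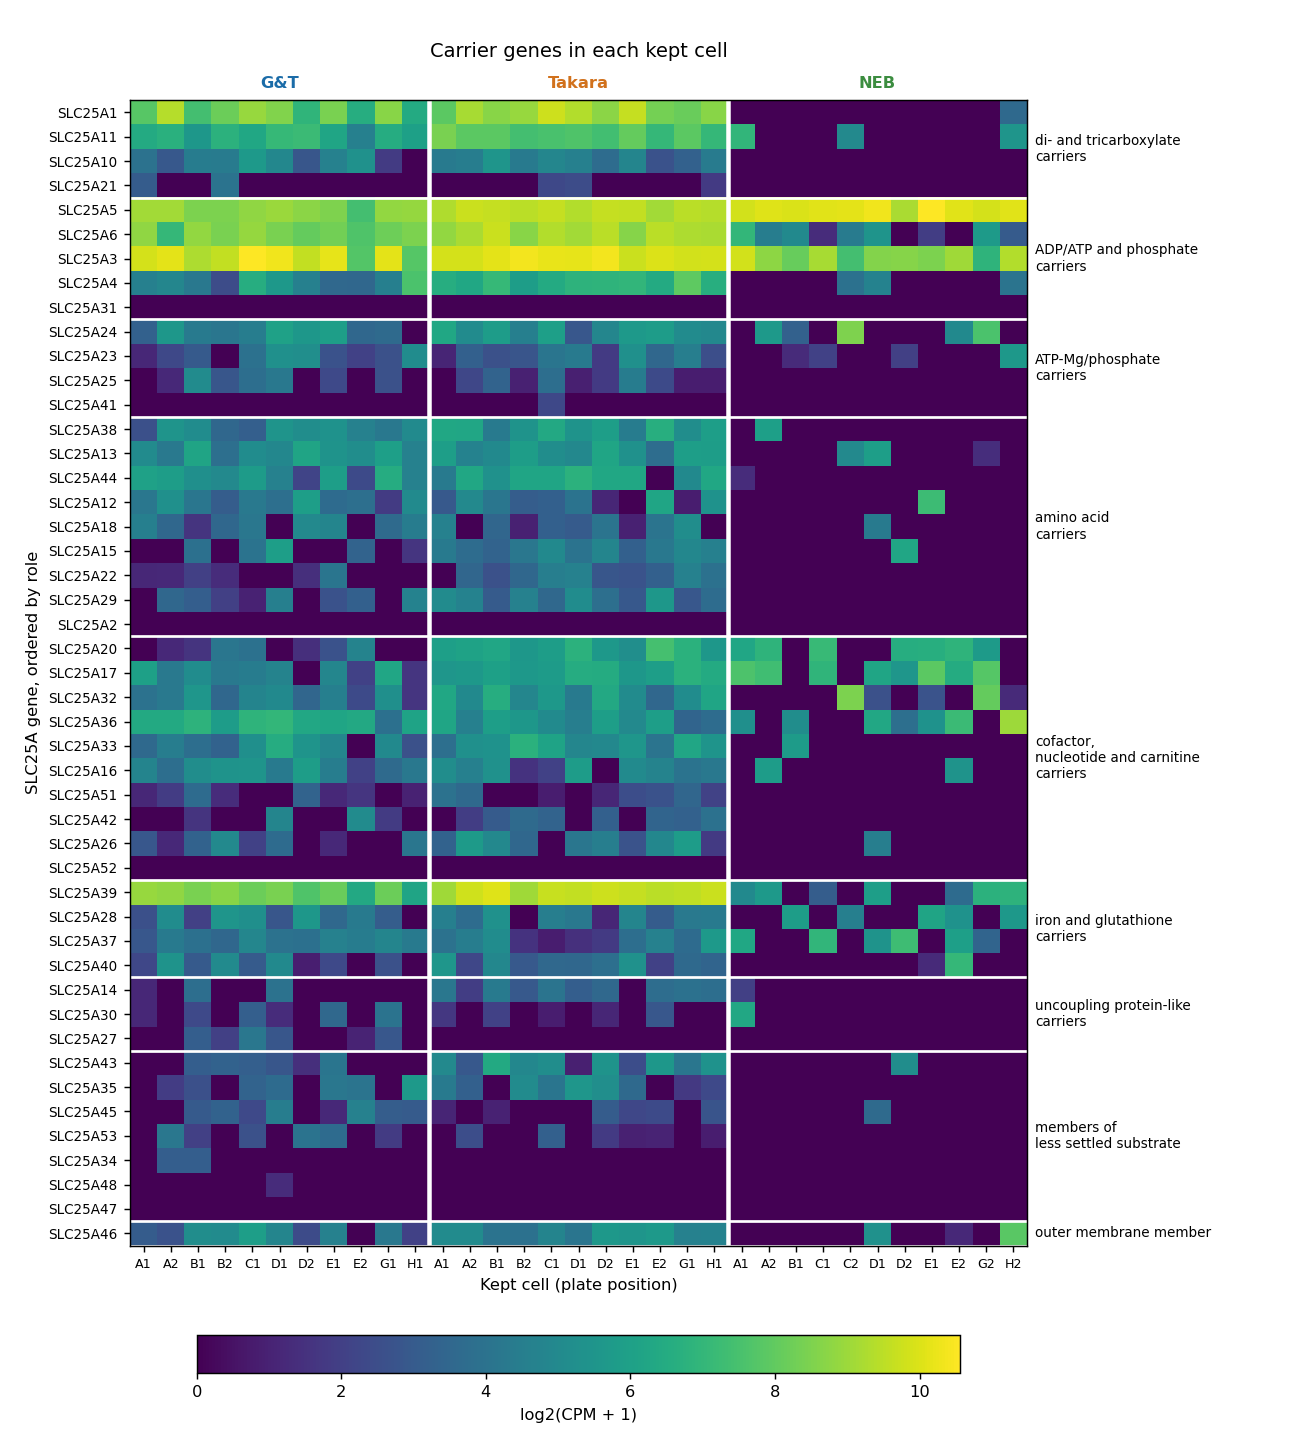
Level of 47 of the 48 members (rows, grouped by role) in each of the 33 kept cells (columns, 11 a protocol), as log2(CPM + 1), from dark (no read) to yellow (highest). SLC25A3 and SLC25A5 are bright in all columns, SLC25A1 has reads in 1 NEB cell, and most other members have reads in a minority of NEB cells.

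The carriers together took 0.286% of the reads on genes in G&T (95% exact binomial interval of the pooled reads 0.283 to 0.290), 0.481% in Takara (0.477 to 0.485) and 0.213% in NEB (0.210 to 0.217). Over single cells the share was lowest at 0.119%, median 0.318% and highest 0.405% in G&T. In Takara these values were 0.413%, 0.473% and 0.558%, and in NEB 0.141%, 0.214% and 0.277%. All Takara cells lay above all G&T and NEB cells, and the G&T and NEB ranges overlapped.

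Fewer genes made up the family's reads in NEB. SLC25A5 held 50.4% and SLC25A3 20.5% of the family's reads there, and SLC25A17 came next with 4.75%. In G&T the leading members were SLC25A3 with 29.8%, SLC25A5 with 14.6% and SLC25A6 with 11.6%. In Takara they were SLC25A3 with 22%, SLC25A39 with 16.2% and SLC25A5 with 14.9%.

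Protocols were compared by the ratio of their pooled CPM, with 1 CPM added to each, among genes that reached 5 CPM in 1 of the 2 protocols, and a gene was called at a difference of at least 2-fold. Of the members, 35 reached that level for G&T and NEB, 36 for Takara and NEB and 37 for G&T and Takara, and a member could pass through its higher protocol alone. G&T was at least 2-fold over NEB for 21 of 35 members, where 42.7% of the 9903 protein-coding genes were called, and NEB over G&T for 6 of 35, where 20.8% were called. Takara was at least 2-fold over NEB for 24 of 36 members (42.9% of 9731 genes), and NEB over Takara for 3 of 36 (23.5%). Takara was at least 2-fold over G&T for 13 of 37 members (20.0% of 9974 genes), and G&T over Takara for 3 of 37 (19.2%). A member that passed only through the protocol where it was high was picked by that value, which favours a call. The counts against NEB include SLC25A1, which chose the family, and all counts describe these libraries alone.

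The median log2 ratio of the members was 1.78 for G&T over NEB, where that of all protein-coding genes was 0.57. It was 2.31 for Takara over NEB (all genes 0.51) and -0.63 for G&T over Takara (all genes -0.08). Nearest the 2-fold line on the positive side were SLC25A26 just inside at 1.07 and SLC25A3 just outside at 0.96 for G&T over NEB. They were SLC25A16 at 1.14 and SLC25A12 at 0.42 for Takara over NEB, and SLC25A36 at 1.16 and SLC25A25 at 0.41 for G&T over Takara. On the negative side they were SLC25A24 at -1.09 and SLC25A30 at -0.74 for G&T over NEB. For Takara over NEB they were SLC25A36 at -1.11 and SLC25A5 at -0.58, and for G&T over Takara SLC25A38 at -1.01 and SLC25A33 at -0.87.

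Among the di- and tricarboxylate carriers, SLC25A1 was the member that chose the family. It encodes the citrate carrier, which exports citrate from the matrix, and lies on chromosome 22 from 19175581 to 19178739. Its level was lowest at 87.1 CPM, median 290 CPM and highest 664 CPM over the G&T cells, and 236, 425 and 877 CPM over the Takara cells. In NEB, 10 of 11 cells had no read, and cell H2 had 8 reads, or 11.4 CPM. Every G&T and Takara cell was thus above every NEB cell. With all cells pooled, G&T had 280 CPM (270 to 291, a 95% Poisson interval), Takara had 510 CPM (497 to 523) and NEB had 1.00 CPM (0.433 to 1.98). The ratio of G&T to NEB was 279 (141 to 647) and that of Takara to NEB 509 (258 to 1179), and with 1 CPM added the log2 ratios were 7.13 and 8.0.

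SLC25A11 and SLC25A10, also carriers of organic acids, were at least 2-fold lower in NEB than in both other protocols. SLC25A11, which exchanges oxoglutarate for malate, was at 23.0, 86.7 and 146 CPM (lowest, median and highest cell) in G&T and at 131, 200 and 347 CPM in Takara. In NEB 8 cells had no read of SLC25A11 and the highest cell, A1, was at 122 CPM and held 81 of its 135 reads. The NEB cells lay below all Takara cells and overlapped the G&T cells. SLC25A10, the dicarboxylate carrier, was pooled at 19.6 CPM in G&T and 20.9 CPM in Takara, and had no NEB read, so it was at least 52.0-fold and 55.6-fold higher than the NEB limit. Genes on either strand share 46.6% of its exon bases, and the strand setting of the counts is not stated in the sources used here. SLC25A21, the oxoadipate carrier, did not reach 5 CPM, with 16 reads in G&T, 13 in Takara and none in NEB.

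**Figure D3:**
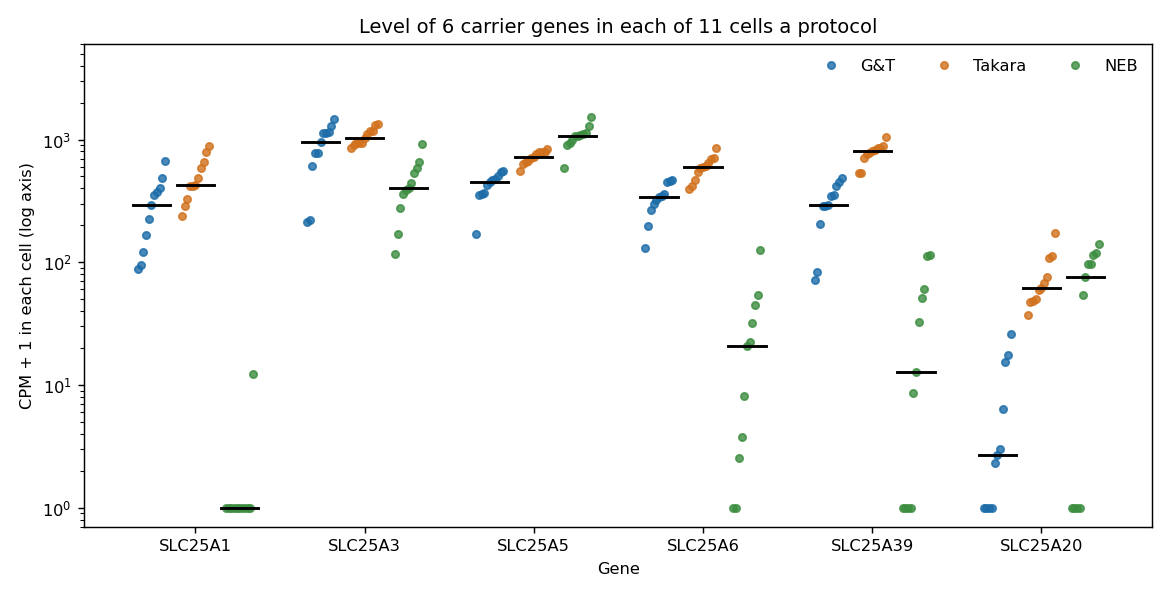
CPM + 1 in each kept cell (log axis) for 6 members in G&T, Takara and NEB, with 11 points a protocol, points at 1 for cells without a read and a black line at the median. SLC25A1, SLC25A6 and SLC25A39 lie lowest in NEB, SLC25A5 lies highest in NEB, and SLC25A20 lies lowest in G&T.

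The ADP/ATP carriers exchange matrix ATP for cytosolic ADP, and the protocols differed in which gene carried the reads. SLC25A5, chromosome X from 119468422 to 119471396, is the form of proliferating cells. Its lowest, median and highest cell were 169, 448 and 552 CPM in G&T, 553, 715 and 832 CPM in Takara and 588, 1076 and 1510 CPM in NEB. All NEB cells were above all G&T cells, all Takara cells were above all G&T cells, and NEB and Takara overlapped. The log2 ratio to NEB was -1.36 in G&T and -0.58 in Takara.

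SLC25A6, a widely expressed form in the pseudoautosomal region of chromosome X from 1386152 to 1392113, went the other way. Its cells were at 129, 342 and 469 CPM in G&T, 393, 591 and 846 CPM in Takara, and 0, 19.8 and 126 CPM in NEB. No NEB cell reached the lowest G&T or Takara cell, and the log2 ratios were 3.54 and 4.37. The sources used here do not state whether the copy of this region on chromosome Y was masked, and the reads of all 3 protocols were handled in 1 way. SLC25A6 had 3149 pooled reads in G&T and 6902 in Takara, so its reads were not lost as a whole to multi-mapping. A partial loss was not tested. SLC25A4, the heart and muscle form, was at 4.56, 23.1 and 190 CPM in G&T and at 58.0, 98.5 and 247 CPM in Takara, and had reads in 3 NEB cells with at most 24.9 CPM. Its log2 ratios were 2.78 and 4.09, and the Takara and NEB ranges did not overlap.

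The sum of the 3 genes lay closer to NEB than each gene did, in G&T and in Takara. Pooled G&T cells had 796 CPM (single cells 378 to 1025), Takara cells 1422 CPM (1173 to 1766) and NEB cells 1109 CPM (588 to 1513). SLC25A5 made up 52.7% of these reads in G&T (95% exact binomial interval 51.5 to 53.8), 50.5% in Takara (49.8 to 51.3) and 97.0% in NEB (96.6 to 97.3). Cell by cell the SLC25A5 share was 42.5 to 78% in G&T, 40.9 to 59.8% in Takara and 87.8 to 100% in NEB, without overlap between NEB and the others. SLC25A6 had 41.6%, 41.4% and 2.49% of the pooled reads, and SLC25A4 had 5.70%, 8.02% and 0.52%. Reads that could not be placed on 1 position were not in the gene counts, and 13.2% of the SLC25A5 exon bases are shared with SLC25A5-AS1, an antisense gene.

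**Figure D4:**
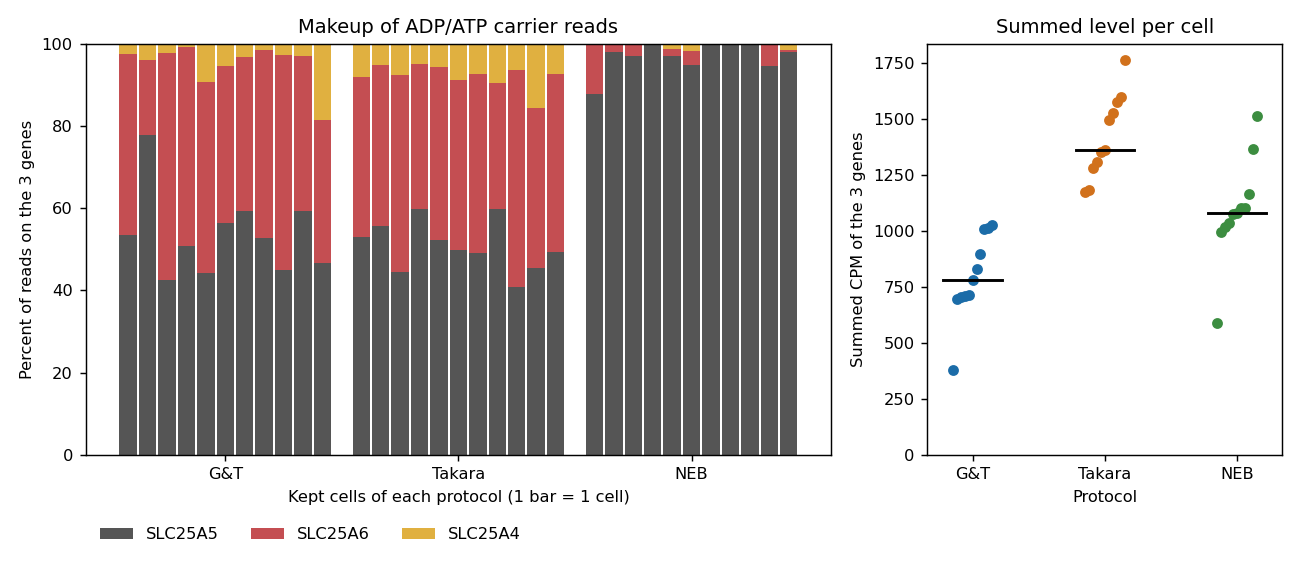
Left, percent of the reads on SLC25A5, SLC25A6 and SLC25A4 that fell on each gene, 1 bar per kept cell, where SLC25A5 makes up 87.8 to 100% in NEB cells and 40.9 to 78% in the others. Right, summed CPM of the 3 genes in each kept cell with a line at the median, at 783 CPM in G&T, 1363 CPM in Takara and 1081 CPM in NEB.

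SLC25A3 carries the phosphate used by ATP synthase, and also copper. Its cells were at 210, 949 and 1480 CPM in G&T, 851, 1022 and 1338 CPM in Takara and 115, 403 and 923 CPM in NEB, and each pair of ranges overlapped. The log2 ratio was 0.96 for G&T over NEB, 1.27 for Takara over NEB and -0.31 for G&T over Takara. Per kilobase of the longest listed transcript, which removes the part of a level that comes with length, SLC25A5 was the highest member in every protocol, at 321, 550 and 823 CPM per kb in G&T, Takara and NEB. In NEB the next was SLC25A3 at 72.0 CPM per kb, and in Takara SLC25A6 at 406 CPM per kb.

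The ATP-Mg/phosphate carriers exchange adenine nucleotides for phosphate and set the size of the matrix pool. Among them, SLC25A24 was at least 2-fold higher in NEB than in G&T, and SLC25A23 and SLC25A25 were at least 2-fold lower in NEB than in both other protocols. SLC25A24 was pooled at 26.8 CPM in G&T, 41.0 CPM in Takara and 58.1 CPM in NEB, but the NEB median cell had no read and 59.2% of the NEB reads came from cell C2. Over reads outside the mitochondrial genome its log2 ratio of G&T over NEB was -0.98, which is under 2-fold. SLC25A23 had 14.4, 12.8 and 4.89 CPM, and 87.2% of its NEB reads came from cell H2. SLC25A25 had 7.37, 5.29 and 0 CPM, at least 19.6-fold higher in G&T and 14.1-fold in Takara than the NEB limit.

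Of the 9 amino acid carriers, 7 reached 5 CPM for G&T and NEB and 8 for Takara and NEB. At least 2-fold lower in NEB were 5 and 7 of them, beside 42.7% and 42.9% of all protein-coding genes at that level. SLC25A18, SLC25A29 and SLC25A44, and for Takara also SLC25A22, were under 5 CPM in NEB and entered only through the other protocol. SLC25A44, which carries branched-chain amino acids, was at 3.43, 36.8 and 92.6 CPM in G&T cells and at 0, 73.8 and 109 CPM in Takara cells, and had 1 read in all NEB cells. Its pooled ratio to that single read was 311 in G&T (95% interval 55.5 to 12332) and 485 in Takara (86.8 to 19192). Its log2 ratios were 5.15 and 5.78, and 3.77 and 4.47 with all deposited cells, because the removed NEB cell F2 held 15 reads of it.

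SLC25A38, a glycine carrier needed for haem, had reads in all G&T and Takara cells (4.96 to 43.5 CPM and 19.6 to 96.6 CPM) and in 1 NEB cell, A2, at 61.7 CPM. SLC25A13 and SLC25A12, the aspartate/glutamate carriers citrin and aralar of the malate-aspartate shuttle, were pooled at 41.4 and 22.7 CPM in G&T and at 43.4 and 18.1 CPM in Takara. In NEB, SLC25A13 had 10.2 CPM from 3 cells, and SLC25A12 had 13.3 CPM, all from cell E1 at 148 CPM, which was above every G&T and Takara cell. The glutamate carrier SLC25A22 was at 2.11 CPM in G&T and 12.7 CPM in Takara, with a G&T over Takara log2 ratio of -2.14, and had no NEB read. SLC25A29, a carrier of basic amino acids, had no NEB read either and was at least 19.6-fold and 51.0-fold higher in G&T and Takara than the NEB limit.

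Of the cofactor, nucleotide and carnitine carriers, 9 reached 5 CPM for G&T and NEB. At least 2-fold higher in NEB were 3 of these 9 and at least 2-fold lower 5, beside 20.8% and 42.7% of all protein-coding genes. Against Takara, 9 reached that level too, with 1 higher in NEB and 5 lower, beside 23.5% and 42.9%. SLC25A26, SLC25A33 and SLC25A42 were under 5 CPM in NEB and entered only through the other protocol. SLC25A20, which carries carnitine and acylcarnitines for fatty acid oxidation, set G&T apart from the other protocols. Its lowest, median and highest cell were 0, 1.71 and 25.1 CPM in G&T, 36.4, 61.1 and 173 CPM in Takara and 0, 75.0 and 139 CPM in NEB. The G&T cells lay below all Takara cells, with a log2 ratio of -3.43, and the log2 ratio of G&T over NEB was -3.12. Takara over NEB was 0.30.

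SLC25A17, a carrier of the peroxisomal membrane, was at 0, 20.4 and 74.9 CPM in G&T, 45.2, 59.8 and 107 CPM in Takara and 0, 89.6 and 237 CPM in NEB. Its log2 ratio was -2.0 for G&T over NEB and -1.44 for G&T over Takara. SLC25A32, the folate and FAD carrier, was pooled at 20.0, 47.5 and 56.2 CPM, with 60.7% of the NEB reads from cell C2. It shares 80.8% of its exon bases with other genes, chiefly DCAF13, so its counts are uncertain. SLC25A36, a pyrimidine nucleotide carrier, was pooled at 82.4, 36.4 and 79.8 CPM and had the largest NEB over Takara difference of this group, a Takara over NEB log2 ratio of -1.11, with 56.8% of its NEB reads from cell H2.

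SLC25A33, also a pyrimidine nucleotide carrier, was pooled at 25.6 CPM in G&T, 47.6 CPM in Takara and 4.64 CPM in NEB, the last from 1 cell. SLC25A26, which brings in S-adenosylmethionine, was at 6.63, 21.3 and 2.63 CPM. SLC25A16 and SLC25A42, linked to coenzyme A, were at 27.6 and 5.68 CPM in G&T, 22.5 and 6.74 CPM in Takara and 9.66 and 0 CPM in NEB. Each of these 4 genes was at least 2-fold lower in NEB than in both other protocols. The NAD+ carrier SLC25A51 was at 3.26 CPM in G&T and 4.61 CPM in Takara, under the limit of 5 CPM, and had no NEB read. Its reads may be undercounted where its sequence matches SLC25A52, which had no read.

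Among the iron and glutathione carriers, SLC25A39, which brings glutathione into mitochondria, was at 70.5, 292 and 482 CPM in G&T and at 528, 804 and 1046 CPM in Takara, and at 0, 11.9 and 114 CPM in NEB. The Takara cells lay above all others, and NEB and G&T overlapped. The log2 ratios were 2.97 for G&T over NEB, 4.43 for Takara over NEB and -1.45 for G&T over Takara. Its paralogue SLC25A40 showed no such gap, with pooled levels of 10.4, 16.1 and 12.7 CPM, although 99.0% of its NEB reads came from cell E2.

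The mitoferrins, which import iron, did not follow SLC25A39. SLC25A37 was at 6.20, 18.7 and 27.6 CPM in G&T cells, 0.776, 13.1 and 50.1 CPM in Takara cells and 0, 9.60 and 155 CPM in NEB cells. Its log2 ratio to NEB was -1.15 in G&T and -1.29 in Takara, and it was the only member at least 2-fold higher in NEB than in both other protocols, although 5 NEB cells had no read of it. SLC25A28 was pooled at 20.0, 17.2 and 21.6 CPM, and all its log2 ratios lay between -0.31 and 0.20.

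The uncoupling protein-like carriers were low in all protocols. SLC25A14 had 2.53 CPM in G&T, 10.9 CPM in Takara and 0.251 CPM, or 2 reads, in NEB, and its ratio of Takara to NEB was 43.6 (95% interval 11.8 to 364). SLC25A30 had 3.58 and 1.11 CPM, and 6.65 CPM in NEB from cell A1 alone. SLC25A27 had 3.89 CPM in G&T, at least 15.2-fold higher than the Takara limit.

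Members whose substrates are less settled were low as well. SLC25A43 was the highest of them per kilobase and was at 4.21 CPM in G&T, 29.6 CPM in Takara and 2.88 CPM in NEB, with a G&T over Takara log2 ratio of -2.55. SLC25A35 was at 10.6 and 15.5 CPM and had no NEB read, at least 28.3-fold and 41.3-fold higher in G&T and Takara than the NEB limit, and shares 28.7% of its exon bases with RANGRF. SLC25A45 and SLC25A53 were higher in G&T than in Takara, at 7.16 against 1.96 CPM and 5.26 against 1.79 CPM. SLC25A46, a member of the outer membrane with a part in mitochondrial shape, was at 19.4, 29.3 and 25.2 CPM, and 80.6% of its NEB reads came from cell H2.

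Many NEB levels thus rested on few cells. Of the 31 members with NEB reads, 12 had them in 1 cell only, as did 18.6% of the 9677 protein-coding genes with NEB reads. These members had 1 to 106 reads (median 22) in that cell, and 7 different cells supplied them. When only the cells with reads were averaged, NEB was above G&T for 20 of 31 members, although its pooled level was above G&T for 10. The same counts against Takara were 20 of 31 and 8. Among all protein-coding genes with reads in both protocols NEB was above in 66.1% in either comparison, and averaging only cells with reads raises the mean of the protocol with fewer such cells. SLC25A12 was at 148 CPM in its NEB cell against a mean of 21.0 CPM over G&T cells with reads, and SLC25A20 was at 98.7 CPM against 9.50 CPM. Among the 11 exceptions in each comparison, SLC25A1, SLC25A3, SLC25A6 and SLC25A39 were lower in NEB than in both other protocols also in the cells that had reads.

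The members differed in base composition, which the choice of members did not use. Over the longest listed transcript, GC content ran from 32.1% in SLC25A46 to 65.6% in SLC25A1, with a median of 48.6% for the family and of 48.7% for all protein-coding genes. Across members, Spearman's rho between GC content and the log2 ratio was 0.656 for G&T over NEB (35 members) and 0.664 for Takara over NEB (36 members). Across all genes it was 0.608 (n = 9903) and 0.626 (n = 9731). For G&T over Takara it was -0.059 over 37 members and -0.150 over all genes. With SLC25A1 left out, the members' rho against NEB was 0.625 (G&T) and 0.634 (Takara). A gene could enter through its higher protocol alone, genes are not independent replicates, and all points of a comparison share the same libraries.

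Of the 16 members of at least 55% GC, 12 reached 5 CPM in each comparison with NEB, SLC25A1 among them. Of these, 9 were under 5 CPM in NEB and so entered only through the other protocol, which leaves SLC25A6, SLC25A11 and SLC25A39 at 5 CPM in both, and nothing is read from their number. The median log2 ratio of all 12 members of a comparison was 3.02 over NEB in G&T and 3.91 in Takara. For all genes of that GC range it was 2.75 and 3.05. The members' medians hold SLC25A1 and the 9 members that entered only through the other protocol, and are a description. For members under 45% the medians were 0.05 and 0.26, against -0.53 and -0.67 for all genes, and for members between 45% and 55% they were 1.18 and 2.82, against 0.90 and 0.99. GC content moved with the ratio in the family as it did in all genes, and its part in the result was not tested.

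Some pairs of related carriers, picked after their values were seen, are given as a description and support nothing. The GC content was 47.8% in SLC25A5 and 60.7% in SLC25A6, 38.5% in SLC25A24 and 58.7% in SLC25A23, and 34.3% in SLC25A40 and 59.4% in SLC25A39, and in each pair the second gene had the higher Takara over NEB log2 ratio (4.37 against -0.58, 1.23 against -0.49 and 4.43 against 0.32). SLC25A23 was at 4.89 CPM in NEB and entered only through Takara. Single cells held 99.0%, 87.2% and 59.2% of the NEB reads of SLC25A40, SLC25A23 and SLC25A24. SLC25A44, with a GC content close to the family's median and a log2 ratio of 5.78, stood outside that order. So did SLC25A4 beside SLC25A5 over the longest listed transcript. There SLC25A4 had a lower GC content, 46.4%, and a higher log2 ratio, 4.09 against -0.58. The order of GC content was reversed over the coding sequence, at 55.1% in SLC25A4 and 52.5% in SLC25A5.

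**Figure D5:**
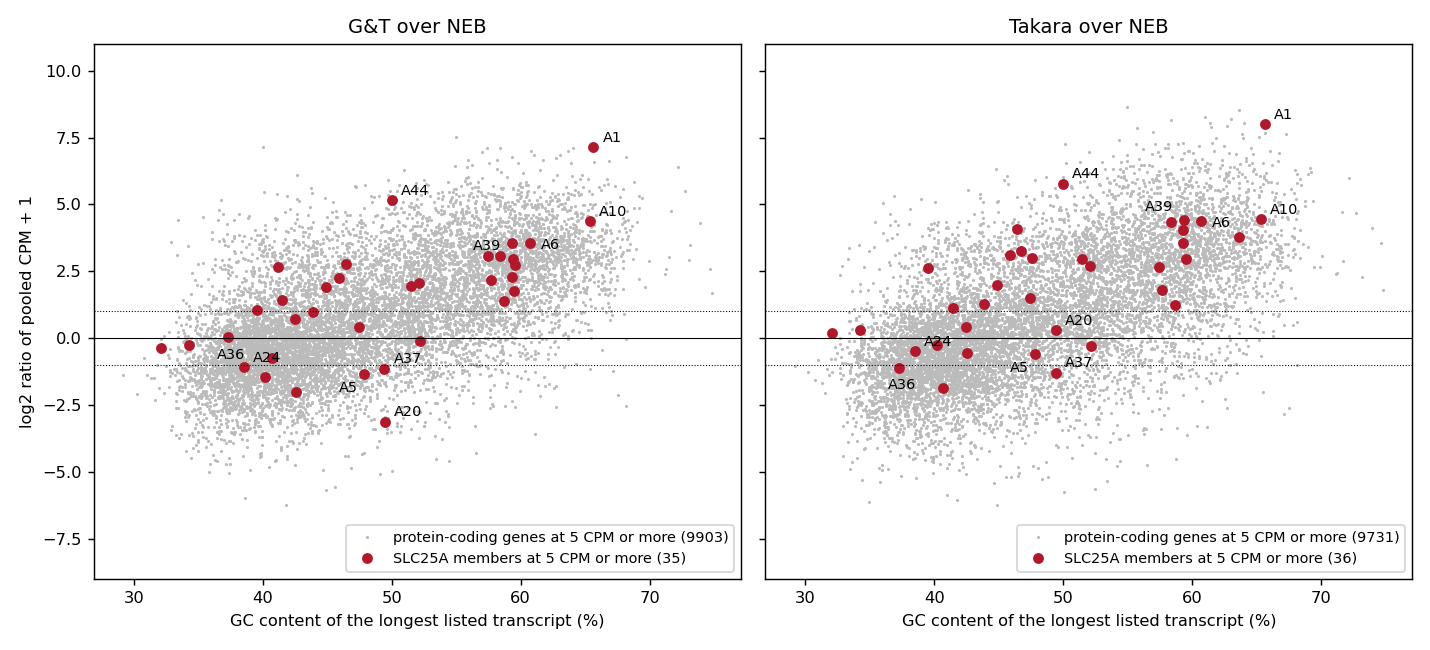
log2 ratio of pooled CPM + 1 against the GC content of the longest listed transcript (%), for G&T over NEB (left) and Takara over NEB (right). Red points are members (35 and 36) and grey points protein-coding genes (9903 and 9731) with at least 5 CPM in 1 of the 2 protocols, dotted lines mark 2-fold, and Spearman's rho over members is 0.656 and 0.664.

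The NEB detection of SLC25A1, described here without a test, was set beside other abundant genes. Of the 40 protein-coding genes with at least 200 CPM in both G&T and Takara and at least 60% GC, 2 had reads in at most 1 NEB cell, SLC25A1 among them, and 45% had reads in every NEB cell. Of 368 such genes under 50% GC, none was that rare and 82.3% had reads in every NEB cell. SLC25A1 chose the family, and these limits were set with its values known, so nothing is read from the counts of rare genes. The only other member of the first group, SLC25A6, had reads in 9 NEB cells.

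In the comparisons with NEB, transcript length had a weaker relation with the ratio than GC content had. Its rho with the log2 ratio over members was -0.126 for G&T over NEB, -0.288 for Takara over NEB and 0.370 for G&T over Takara, where the values over all genes were -0.086, -0.276 and 0.377. Longer members thus tended to be higher in G&T than in Takara, as all genes did.

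Genes that work with the carriers were set beside them. Of 11 genes of citrate handling, 8 were at least 2-fold higher in G&T than in NEB and 2 lower, and 7 and 1 in the comparison of Takara with NEB. These counts, and those of the lists below, stand beside 42.7% and 20.8% of all protein-coding genes for G&T with NEB, and 42.9% and 23.5% for Takara with NEB. FASN, which makes fatty acids from the carbon of exported citrate, was pooled at 73.5 CPM in G&T, 18.9 CPM in Takara and 0.627 CPM in NEB, and its GC content is 65.3%. MDH2, the matrix malate dehydrogenase, was at 707, 1078 and 275 CPM, while its cytosolic counterpart MDH1 was at 378, 383 and 986 CPM.

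Of 13 genes of the import machinery, 5 were at least 2-fold lower in NEB than in G&T and 1 higher, and the same numbers held against Takara. The import pore TOMM40 was at 34.1, 125 and 0.752 CPM, and TIMM29 of the TIM22 complex at 16.9, 32.3 and 0.627 CPM, whereas TIMM8B, a small chaperone of the intermembrane space, was at 338, 221 and 404 CPM. Of 12 other inner membrane transporters, 4 were lower in NEB than in G&T and 1 higher, and 6 and 2 against Takara. ABCB8 had no NEB read, with 23.1 CPM in G&T and 42.3 CPM in Takara, while MPC2, a subunit of the pyruvate carrier, was at 69.8, 79.4 and 168 CPM.

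Among the outer membrane channels, VDAC1 was lower in NEB, at 82.5, 210 and 28.8 CPM, and VDAC2 and VDAC3 were higher in NEB than in G&T, at 290, 716 and 654 CPM and at 233, 710 and 728 CPM. Of the relatives outside the SLC25A names, the uncoupling proteins UCP1 and UCP3 had no read in a kept cell, and UCP2 was at 56.5, 336 and 65.1 CPM. MTCH1 and MTCH2, divergent members of the outer membrane, were at 102, 450 and 24.8 CPM and at 251, 678 and 224 CPM.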

How the data were processed

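The authors used Trim Galore in 2 rounds and STAR against GRCh38, and deposited raw read counts per gene, with 1 column per cell and 1 table per protocol, without normalization or molecular identifiers. The annotation release and strand setting are not given in the sources used here. Cells were kept with at least 1000 genes, a library size (reads on genes and spike-ins) of at least 600000, at most 30% mitochondrial and 25% spike-in reads. Members, transcripts and coordinates were matched by Ensembl identifier to GENCODE 44, which may not be the authors' release, and 56104 of 60279 listed genes matched. Sequences were read from the GRCh38 genome. No column was left unmatched (0 not used).

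Reads of the kept cells were summed per protocol and scaled to 1000000 reads on genes (CPM). 1 CPM was added before log2 ratios, genes needed 5 CPM in 1 of the 2 protocols, and 2-fold was the limit for a call. Intervals are 95% Poisson or exact binomial. The cells of 1 run are not replicates, so no test between protocols was made. Members, gene lists and rules were chosen with earlier results of these data known. Named genes were SLC25A1, the 4 members with the largest ratio per pair and direction, the highest per kilobase of each role, near-identical genes, members without a read and 4 genes of each other list. Further members were given to describe their role group, and were added after their values were seen. Some items that these rules cover are not reported here. Alternatives covered the cells kept, detection limit, thinning, denominator, TMM scaling (edgeR 4.0.16, R 4.3.3), added CPM, averaging over cells, filters, fold and transcript model. TMM shifted the median log2 ratio of all genes by -0.10 for G&T over NEB, -0.04 for Takara over NEB and -0.06 for G&T over Takara. Steps used matplotlib 3.10.9, pandas 2.3.3, numpy 2.4.6 and scipy 1.17.1 under Python 3.11.15. The ratio step was tested on simulated data in which only genes well above 5 CPM were changed, so low members were not covered.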

Additional observations from a re-analysis of the deposited data

Results flagged for a closer look

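Reads on carriers in the 7 cells that failed the quality thresholds, and on the family's pseudogenes, lie outside the comparisons. They were above the limit of 3 reads that a count of 0 allows in 5 of the 7 cells and, for the pseudogenes, in each protocol. The removed G&T cells C2 and F1 had 773 and 1608 reads on carriers, of which 40 and 78 were on SLC25A1. The removed Takara cell C2 had 5 reads, 1 of them on SLC25A1, in a library of 15325 reads on genes. The removed NEB cells B2 and F2 had 459 and 1298 reads on 5 and 14 members, and none on SLC25A1, as in 10 of the 11 kept NEB cells.

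The 43 pseudogenes named after family members had 22, 14 and 59 reads in G&T, Takara and NEB, pooled over the kept cells. In NEB 55 of these were on pseudogenes of SLC25A24, a member that was higher in NEB than in G&T, and 15 of the G&T reads were on those of SLC25A5. Whether these reads came from the parent genes was not tested.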

How the results depend on the processing

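Of 426 recomputed values, 384 stayed within their interval, their spread or 1.5 times their count and 42 moved. The sign changed for 0 ratios called at 2-fold and for 3 smaller ones, of at most 0.36 on the log2 scale: SLC25A36, SLC25A46 and SLC25A10. For single members other than SLC25A1, 21 of 300 moved. Requiring 5 reads lowered the members per cell to 26.7 in G&T and 32.4 in Takara. With all deposited cells, Takara had 31.1 members per cell, and the family's share of reads was 0.274% in G&T and 0.209% in NEB. Over reads outside the mitochondrial genome the share was 0.341%, 0.534% and 0.235% in G&T, Takara and NEB. Adding 0.1 CPM gave log2 ratios of SLC25A1 of 7.99 for G&T and 8.85 for Takara over NEB. Its G&T over Takara ratio was -0.98 with all cells, -0.76 outside the mitochondrial genome and -0.75 as a mean over cells. At a fold of 4, 2 members were higher in NEB than in G&T, 0 in NEB than in Takara, 0 in G&T than in Takara and 3 in Takara than in G&T. With a filter of 1 CPM or none, 6 members were higher in G&T than in Takara. With the canonical transcript, which like leaving out SLC25A1 was chosen after seeing the data, the rho with length was -0.23 for G&T and -0.39 for Takara over NEB. The cause of these shifts was not tested, apart from those that follow from fewer reads, cells or genes counted. No paired analysis was possible because the results come from no test, and well positions that cells of different protocols share are no pairing.

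Depth, the lack of molecular identifiers and NEB levels carried by single cells limit the low members. Protocol and run cannot be told apart.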
